A study of Mus musculus with 22 samples.

Results

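The data concern 10 genes of cell survival, autophagy and mitochondrial clearance in differentiating mouse erythroid cells: Bnip3l, Bnip3, Bcl2l1, Mcl1, Foxo3, Ulk1, Map1lc3b, Gabarapl2, Trim58 and Alox15. They were chosen by name for their roles, out of 21938 protein-coding genes, and each was followed over its gene body plus 20 kb on either side in the mm10 (GRCm38) genome. The cells were G1E-ER4, a clonal line without its own Gata1 that carries a transgene of GATA1 fused to the ligand-binding domain of the estrogen receptor, and all samples shared this genotype. They were grown with SCF and erythropoietin and harvested untreated (0 h) or after 2, 6, 12 or 24 h in β-estradiol, which activates the fused GATA1 and starts erythroid maturation. ChIP-seq peaks were listed for H3K4me3 and for H3K27ac in 2 replicate lists at each of the 5 time points, and for CTCF in 1 list at 0 h and 1 at 24 h.

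A maturing red cell has to stay alive while it discards its mitochondria and other organelles. Anti-apoptotic proteins of the BCL2 family (Bcl2l1, which encodes BCL-XL, and Mcl1) hold the mitochondrial pathway of cell death in check. Bnip3l, also called NIX, and Bnip3 are receptors on the outer mitochondrial membrane that hand mitochondria to the autophagosome; Ulk1 is the kinase that starts autophagosome formation, and Map1lc3b and Gabarapl2 encode ubiquitin-like proteins that are attached to its membrane. Foxo3 is a transcription factor of the forkhead class with known targets among autophagy and antioxidant genes. Trim58 is a ubiquitin ligase of late erythroid cells, and Alox15 is a lipoxygenase that oxidises membrane lipids of organelles in reticulocytes. H3K4me3 is found at the starts of active or poised genes, and H3K27ac at enhancers and promoters in use.

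The H3K4me3 lists held 12925 to 14452 peaks and the H3K27ac lists 17247 to 18333, and the CTCF lists held 33193 at 0 h and 41473 at 24 h. The lists gave positions and a peak score but no read counts, so the depth behind a peak is unknown and only the presence and length of peaks could be compared. Among erythroid marker genes, H3K4me3 lay within 2 kb of the start in all 10 lists at Klf1, Epor, Tfrc and Slc4a1, in 9 lists at Alas2 and Nfe2, and in 0 at Tal1. H3K27ac lay there in all 10 lists at Klf1 and Slc4a1, in 7 at Alas2, in 2 at Epor, in 1 at Tfrc, and in 0 at Tal1 and Nfe2. The marker genes of other tissues reported here (Cd3e, Alb, Myod1, Neurod1 and Epcam) had no promoter peak of either mark in any list.

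Peaks of the 10 lists of a mark that touched were joined into regions, and the length covered in each list was compared between times with limma on log2(covered bp + 200), with p-values adjusted by Benjamini-Hochberg over all regions of the genome that had a peak in at least 2 lists. The 10 windows held 18 H3K4me3 regions, 8 of them at the gene's own transcription start site (TSS), and 30 H3K27ac regions, 7 of them at the TSS. Of the H3K4me3 regions, 16 (88.9%) were present in all 10 lists, against 70.8% of all H3K4me3 regions. Of the H3K27ac regions, 17 (56.7%) were present in all 10 lists, against 54.4% of all, 11 were in 2 to 9 lists and 2 were in 1 list only and were not tested.

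At 24 h against 0 h, 0 of 18 member H3K4me3 regions were longer and 1 was shorter at an adjusted p under 0.05, where 0.471% of all tested regions were longer and 1.11% shorter. At an unadjusted p under 0.05, 2 of the 18 differed, and 1841 of all 14862. Over all 5 times, 2 of 18 passed the limma F test, against 1.25% of all regions. None of the 18 was gained (a peak in both lists at 24 h and in neither at 0 h) or lost (the reverse), where 0.456% of all regions were gained and 3.88% lost.

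Of 28 member H3K27ac regions tested, 1 was longer at 24 h and 0 were shorter, where 3.3% of all tested regions were longer and 3.02% shorter; 6 of the 28 and 4444 of all 21011 had an unadjusted p under 0.05. The F test over time passed for 1 of 28, against 5.61% of all. Of the 30 regions, 1 was gained and 1 was lost, against 3.43% and 4.18% of all regions. The median log2 difference of the tested regions was 0.02 for H3K4me3 and 0.09 for H3K27ac, beside -0.04 and 0.01 over all regions. Counts of 0 to 2 regions describe single sites and not the 10 genes as a set, and the results that follow are given site by site. With 2 lists at a time, an exact permutation test of 24 h against 0 h cannot go below p = 0.333 for a single region, and the adjusted p-values come from limma, which shares the spread across regions. Where all lists of one time are said to lie above or below others, this describes the values, and the share of all regions with such a separation is not given. The labels do not say whether replicates were separate cultures, the study describes its ChIP-seq replicates as independent experiments, and p-values measure the spread between these lists.

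**Figure D1:**
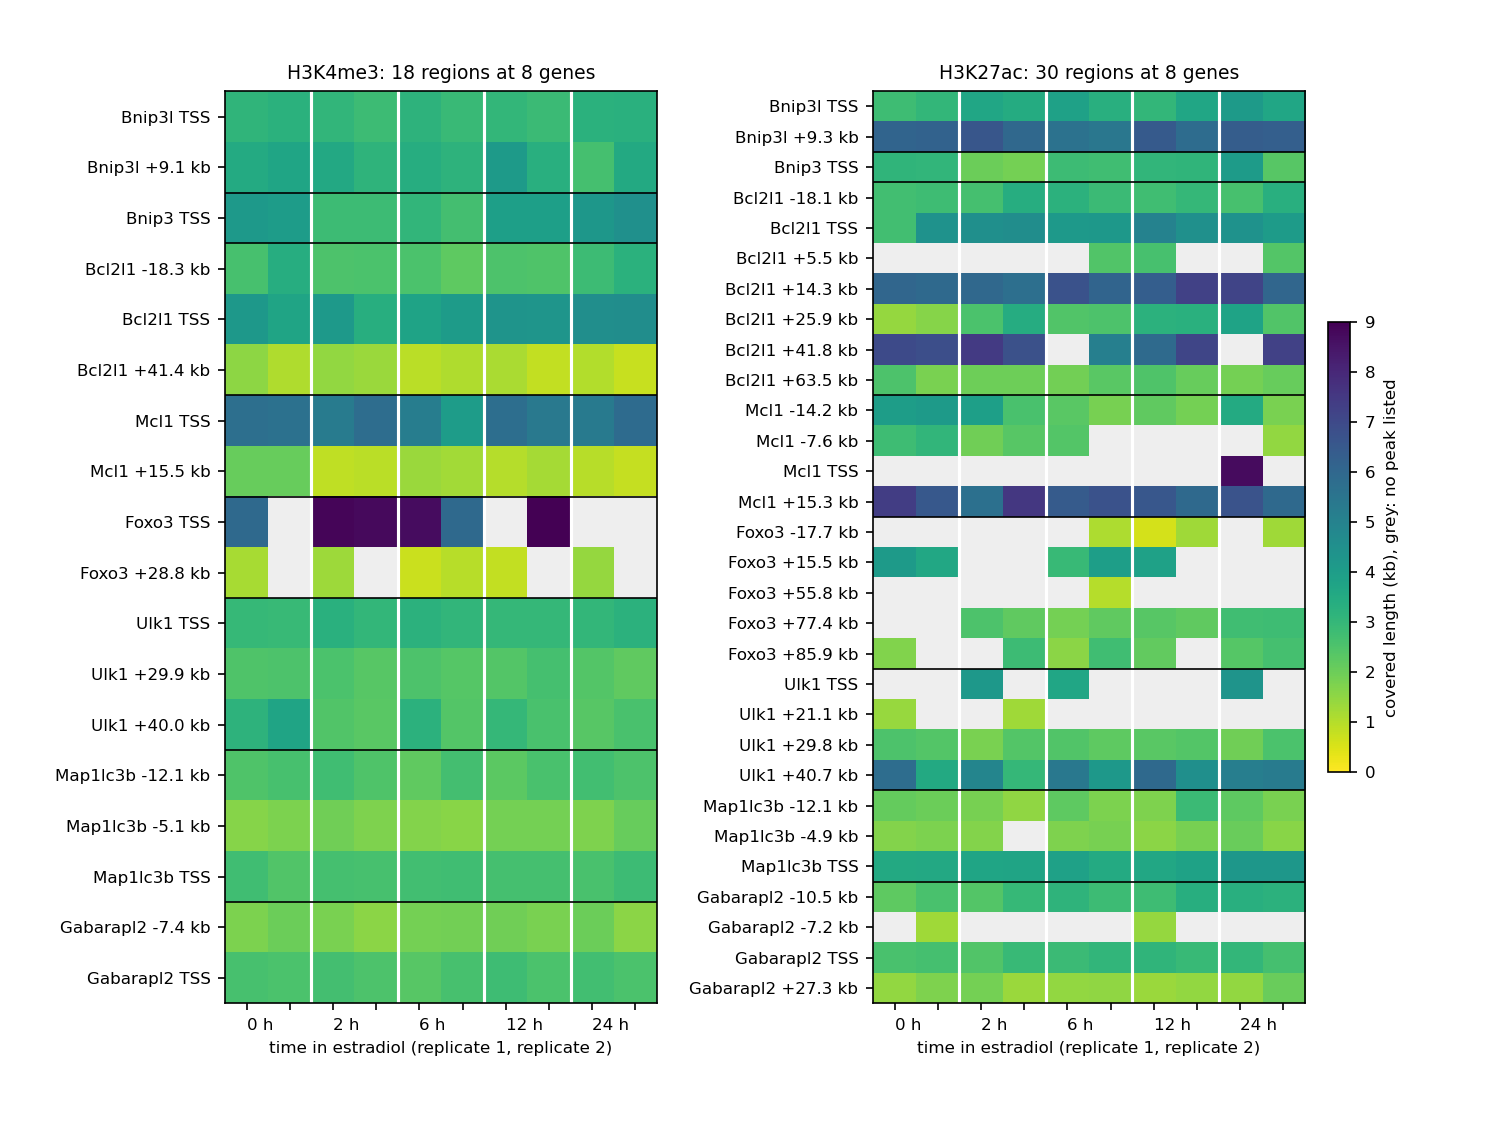
Covered length in kb (colour) of each member region in each of 10 lists, for H3K4me3 (left) and H3K27ac (right). Rows give the gene and the distance of the region's centre from its TSS, columns the 2 replicates at each time, and grey marks a list without a peak. The Foxo3 rows are the most broken, and the TSS rows of Mcl1 and Ulk1 are filled in all 10 lists for H3K4me3 but in 1 and 3 lists for H3K27ac.

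At Bnip3, one of the mitophagy receptors, the only H3K4me3 region of the window lay over the TSS (chromosome 7, 138906167 to 138910871, on the UTR and coding part of the gene), and it shortened at 2 and 6 h and regained its length by 24 h. Its length was 4131 and 4039 bp in the lists at 0 h, dropped to 2816 and 2845 bp after 2 h, and stood at 3062 and 2705 bp after 6 h. It covered 3903 and 3931 bp at 12 h and 4243 and 4497 bp at 24 h. The 4 lists at 2 and 6 h were all shorter than the 6 others, a grouping that was not among the planned tests. The change over time passed the F test (adjusted p = 0.012, limma), with a log2 difference of -0.50 at 2 h from 0 h, while the difference at 24 h from 0 h was 0.09 (SE 0.06) and did not pass (adjusted p = 0.66). Leaving out each list in turn gave adjusted p-values of 0.0092 to 0.042 for the F test. The peak score ran the other way: it was 541 and 565 at 0 h, 716 to 971 at 2 and 6 h, and 458 to 538 at 12 and 24 h. In the 4 lists with the short peaks the lowest score was 716 and in the others the highest was 565, and the part of the score in the change of length was not tested.

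The 250 bases before the Bnip3 start (chr7:138909507-138909756, mm10, minus strand, from the RefSeq promoter table for GRCm38.p6) are shown because they lie within this region. Capitals mark every match to the hypoxia response core, ACGTGC or GCGTGC, on either strand, with overlapping matches run together.
Bnip3 promoter: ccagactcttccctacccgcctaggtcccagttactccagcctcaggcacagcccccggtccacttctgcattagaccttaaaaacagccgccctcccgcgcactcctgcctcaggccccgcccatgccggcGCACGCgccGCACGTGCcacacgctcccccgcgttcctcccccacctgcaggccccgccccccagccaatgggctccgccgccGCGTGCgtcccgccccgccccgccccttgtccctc

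The stretch held 4 such matches, of which 2 overlap. One or more matches occurred in 4 of the 8 member promoters that the table holds (Bnip3, Bcl2l1, Foxo3 and Map1lc3b) and in 16.3% of all 32851 promoters. The window for these shares runs from 250 bases before to 50 after the start, and the promoters were not matched for base composition.

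The H3K27ac peak at the Bnip3 TSS (138906705 to 138910801) covered 3125 and 3080 bp in untreated cells, 2015 and 1896 bp after 2 h, 2820 and 2745 bp after 6 h, and 3063 and 3096 bp after 12 h. At 24 h the replicates stood apart, at 4051 and 2339 bp. The 2 lists at 2 h were the shortest of all 10, but the F test did not pass with all lists (adjusted p = 0.41, limma). Without replicate 1 at 24 h it gave 0.012, and without replicate 2 at 24 h 0.0058. The log2 difference at 24 h from 0 h changed sign between these alternatives, from -0.38 to 0.36.

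**Figure D2:**
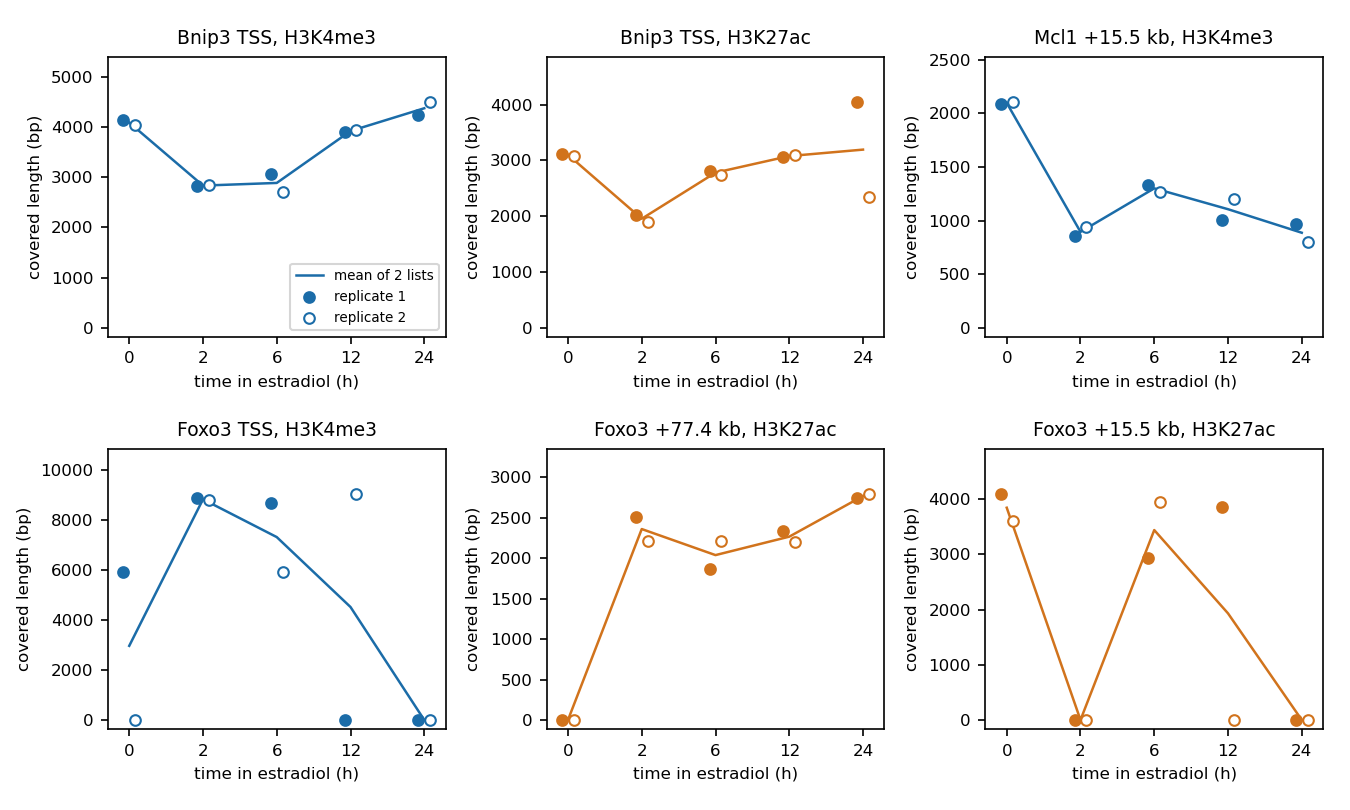
Covered length in bp against time in estradiol in h (times evenly spaced, not to scale) for 6 regions, with filled points for replicate 1, open points for replicate 2 and a line through the mean of both. Bnip3 dipped at 2 h in both marks, the Mcl1 region was longest at 0 h, the Foxo3 region at +77.4 kb was listed from 2 h on, the Foxo3 TSS peak differed between replicates at 0, 6 and 12 h, and the Foxo3 region at +15.5 kb was listed in both replicates at 0 and 6 h, in 1 at 12 h and in neither at 2 and 24 h.

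Bnip3l, the receptor NIX, kept both marks at its TSS in all 10 lists. The H3K4me3 peak there (chromosome 14, 67006627 to 67009983) ranged from 2822 to 3272 bp with a median of 3097 bp, and averaged 3184 ± 91.9 bp in untreated cells and 3265 ± 9.9 bp after 24 h (SD, n = 2; log2 difference 0.03, adjusted p = 0.91, limma). The H3K27ac peak over the TSS (67005797 to 67009931) covered 2782 and 3051 bp at 0 h and 4082 and 3673 bp at 24 h. All 8 lists after 0 h but replicate 1 at 12 h (3038 bp) were longer than both lists at 0 h, yet the 24 h difference of 0.39 on the log2 scale (SE 0.12) did not pass (adjusted p = 0.12). A longer H3K27ac region lay inside the gene, 9.33 kb after the TSS (66996075 to 67003023, over coding exons), at 5423 to 6583 bp in 10 of 10 lists, with an H3K4me3 peak of 2656 to 4088 bp within it, also in 10 of 10. Neither changed at 24 h by the fit (adjusted p = 0.87 and 0.63).

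Of the anti-apoptotic genes, Bcl2l1 had the most H3K27ac regions, 7 in a window of 91.1 kb against 4 in 44.4 kb at Mcl1. Bcl2l1 had 5 of its 7 in all 10 lists. Its TSS (chromosome 2, 152830666) carried H3K4me3 in 10 of 10 lists, at 3370 to 4573 bp. It covered 4202 and 3753 bp at 0 h and 4549 and 4573 bp at 24 h (log2 difference 0.19, SE 0.10, adjusted p = 0.51, limma). Its score was 905 to 1088 in the 6 lists up to 6 h and 670 to 761 in the 4 lists at 12 and 24 h, so that only the later peaks fell under the median H3K4me3 score; when peaks under that median were left out, the region was called lost. H3K27ac at the TSS covered 2721 and 4429 bp at 0 h and 4052 to 5022 bp in the 8 later lists, so that replicate 1 at 0 h stood below all others. Without that list the log2 difference at 24 h was -0.06, and without replicate 2 at 0 h it was 0.60 (adjusted p = 0.023), against 0.27 (adjusted p = 0.54) with both.

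Inside the Bcl2l1 intron, 25.9 kb after the TSS (152802840 to 152806610), the H3K27ac peak covered 1435 and 1620 bp at 0 h and 2427 to 3771 bp in the 8 later lists. Both lists at 0 h lay below every later one. The log2 difference at 24 h was 0.91 (SE 0.21) with an adjusted p of 0.057 over all regions, and 0.035 when only regions present in all 10 lists were tested, an alternative chosen after seeing the data. Without replicate 2 at 24 h the adjusted p was 0.017. The longest Bcl2l1 region away from the TSS, 41.8 kb after it and also intronic (152784884 to 152792817), was listed at 5102 to 7467 bp in 8 lists and had no peak in replicate 1 at 6 h or replicate 1 at 24 h. At 14.3 kb after the TSS a region of 5715 to 7270 bp was in 10 of 10 lists. A further region, centred at -18.1 kb from the TSS, lay at the start of the neighbouring gene Tpx2 and carried both marks in every list.

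Mcl1 carried H3K4me3 over its TSS and most of its short gene body in 10 of 10 lists (chromosome 3, 95657380 to 95663512), at 4009 to 5838 bp with a median of 5500 bp. Its mean was 5688 ± 48.8 bp in untreated cells and 5562 ± 390 bp after 24 h (SD, n = 2; log2 difference -0.03, adjusted p = 0.98, limma). H3K27ac over the same TSS was listed in 1 of 10 lists, replicate 1 at 24 h, as a peak of 8726 bp with a score of 67.3, and the other 9 lists had no peak there. Those lists did have H3K27ac peaks on both sides of the gene. A region centred at -14.2 kb from the TSS was in 10 of 10 lists. So was one of 5670 to 7537 bp centred 15.3 kb after the TSS. The region at -14.2 kb averaged 4044 bp in untreated cells, 2030 bp after 12 h and 2660 bp after 24 h. Another, centred at -7.63 kb, was in 6 lists, with 2801 and 3091 bp in untreated cells. After 2 h both lists held it, after 6 h only replicate 1 and after 12 h neither. At 24 h only replicate 2 did (1465 bp). Neither upstream region passed at 24 h (log2 difference -0.63 and -2.45, adjusted p = 0.32 and 0.39, limma).

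Within that downstream H3K27ac region lay the only member H3K4me3 region that shortened at 24 h (95673244 to 95675369, outside protein-coding exons and introns, 15.5 kb after the Mcl1 TSS and 12548 bp from the nearest protein-coding start, that of Adamtsl4). It covered 2087 and 2107 bp in untreated cells, 853 and 936 bp after 2 h, 1336 and 1265 bp after 6 h, 1007 and 1205 bp after 12 h, and 970 and 803 bp after 24 h. Both lists at 0 h were longer than every later list. The log2 difference was -1.07 at 2 h and -1.08 (SE 0.14) at 24 h, with an adjusted p of 0.011 for 24 h and 0.035 over time (limma). The scores were 134 and 169 at 0 h and 63.1 to 235 later, and overlapped. Without replicate 1 at 0 h the adjusted p for 24 h was 0.097 and without replicate 2 at 0 h 0.086, so the call needs both lists at 0 h, and the F test over time gave 0.045 to 0.23 as each list was left out. The H3K27ac region around it covered 7357 and 6520 bp at 0 h and 6711 and 5908 bp at 24 h (log2 difference -0.13, adjusted p = 0.66).

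The 300 bases at the centre of this H3K4me3 region (chr3:95674157-95674456, mm10, plus strand) are shown because it is the region that shortened. Capitals mark a KLF word, CCCCACCCC, and an E-box, CAGCTG, on either strand.
Mcl1 downstream region: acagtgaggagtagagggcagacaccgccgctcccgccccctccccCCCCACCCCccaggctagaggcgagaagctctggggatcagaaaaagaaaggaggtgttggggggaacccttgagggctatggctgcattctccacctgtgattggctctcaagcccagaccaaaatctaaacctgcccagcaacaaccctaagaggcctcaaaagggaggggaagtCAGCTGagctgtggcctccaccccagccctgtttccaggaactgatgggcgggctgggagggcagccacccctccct

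A KLF word (CCACACCCT or CCCCACCCC) occurred in the central 300 bases of 5.81% of all H3K4me3 regions and an E-box (CAGCTG or CAGATG) in 28.5%. Over its whole length the region held 0 matches to the GATA words (AGATAA with its variant AGATAG, together with TGATAA and its variant TGATAG) on either strand, against 1.68 per kb over all H3K4me3 regions. It held 6 E-boxes, or 2.82 per kb against 1.15, and 2 KLF words, or 0.941 per kb against 0.198. A match describes the letters and not binding.

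Foxo3 was the least settled of the 8 marked genes. Its TSS (chromosome 10, 42276752, minus strand) had no H3K27ac peak within 2 kb in any of 10 lists. H3K4me3 over the TSS was listed in 6 of 10 (42269945 to 42279117), at 5933 bp in replicate 1 and absent in replicate 2 at 0 h, 8873 and 8787 bp after 2 h, and 8700 and 5936 bp after 6 h. It was absent in replicate 1 and 9040 bp in replicate 2 at 12 h, and absent in both at 24 h. The peaks near 5.9 kb had scores of 1088 and 1348, and those of 8700 bp or more had scores of 54.8 to 102, close to the lowest score in the lists, 50. The 24 h difference did not pass (adjusted p = 0.72, limma), and presence at this TSS cannot be read as a change in the mark while replicates of one time differ. A short H3K4me3 region over a Foxo3 exon, 28.8 kb after the TSS, was listed in 6 lists at 728 to 1427 bp with scores of 55.9 to 80.3.

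Inside the Foxo3 gene, in an intron 77.4 kb after the TSS (42197934 to 42200725), H3K27ac was gained. No list at 0 h had a peak there, and all 8 later lists did, with 2507 and 2212 bp after 2 h, 1867 and 2208 bp after 6 h, 2334 and 2197 bp after 12 h, and 2744 and 2792 bp after 24 h. It was the only member region called longer (adjusted p = 5.7e-05 for 24 h and 0.00014 over time, limma). The region entered the fit through its later lists alone, and both values at 0 h were 0 bp because no peak was listed. Those equal values hold no spread in length, so the p-values do not measure one at 0 h. The log2 difference of 3.89 depended on the pseudocount, at 5.82 with 50 bp and 1.91 with 1000 bp. Leaving out each list gave 3.88 to 3.9, which cannot test how an unlisted peak is treated. Its scores were low, 68.4 to 99.4, with a median at the 15.3 percentile of the H3K27ac peaks. When only peaks at or above the median H3K27ac score (242) were kept, no member H3K27ac region was called. This region was not tested there, since all its peaks scored below that median.

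A second intronic H3K27ac region, 15.5 kb after the Foxo3 TSS (42259224 to 42263316), was lost by the definition above. It was listed at 4093 and 3598 bp at 0 h, in neither list at 2 h, at 2932 and 3949 bp at 6 h, at 3863 bp in replicate 1 alone at 12 h, and in neither list at 24 h. The path was not one-way, since the peak came back at 6 h, and the fit did not pass (adjusted p = 0.10), although it did with the 4 lists at 0 and 24 h alone (0.0097) or without either list at 12 h (0.0013 and 0.00092). Scores were 51 to 181. Of the 3 other H3K27ac regions in the window, the one 85.9 kb after the TSS was in 7 lists, the one at -17.7 kb in 4 and the one 55.8 kb after it in 1. Summed over the window, H3K27ac covered 2507 to 11022 bp with a median of 5455 bp.

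The centres of the gained and of the lost region (chr10:42199180-42199479 and chr10:42261120-42261419, mm10, plus strand) and the 250 bases before the Foxo3 start (chr10:42276696-42276945, minus strand, RefSeq) are shown as the sites where peaks differed between lists. The RefSeq start of Foxo3 differs by 57 bp from the GENCODE TSS given above, so part of the promoter stretch lies past that TSS. Capitals mark a hypoxia response core, and the centres held no match to any word searched.
Foxo3 gained region: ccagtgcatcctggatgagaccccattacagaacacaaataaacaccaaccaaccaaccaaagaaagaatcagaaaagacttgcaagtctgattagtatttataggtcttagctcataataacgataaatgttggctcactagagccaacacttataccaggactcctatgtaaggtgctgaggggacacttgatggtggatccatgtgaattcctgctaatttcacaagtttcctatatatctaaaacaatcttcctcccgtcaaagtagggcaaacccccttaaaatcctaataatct
Foxo3 lost region: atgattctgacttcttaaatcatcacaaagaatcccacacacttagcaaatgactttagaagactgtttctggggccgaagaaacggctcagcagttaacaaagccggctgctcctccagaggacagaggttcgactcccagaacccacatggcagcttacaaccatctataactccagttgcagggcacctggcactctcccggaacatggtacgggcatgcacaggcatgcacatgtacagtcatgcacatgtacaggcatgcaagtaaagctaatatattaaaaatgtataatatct
Foxo3 promoter: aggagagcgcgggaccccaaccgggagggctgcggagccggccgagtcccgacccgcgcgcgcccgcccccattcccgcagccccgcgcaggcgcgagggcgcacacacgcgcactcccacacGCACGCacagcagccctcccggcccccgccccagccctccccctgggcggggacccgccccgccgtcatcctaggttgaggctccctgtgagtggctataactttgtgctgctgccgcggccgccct

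Over their whole lengths the gained region held 6 GATA words, or 2.15 per kb, and the lost region 8, or 1.95 per kb, beside 2.04 per kb over all H3K27ac regions. Each held 1 FOXO word (GTAAACA), or 0.358 and 0.244 per kb, beside 0.145 per kb over all H3K27ac regions. That word was in 0 of the 8 member promoters and in 3.65% of all promoters. The lysosomal CLEAR word GTCACGTGA was in neither region and in 0 of 8 member promoters, against 0.782% of all promoters.

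**Figure D3:**
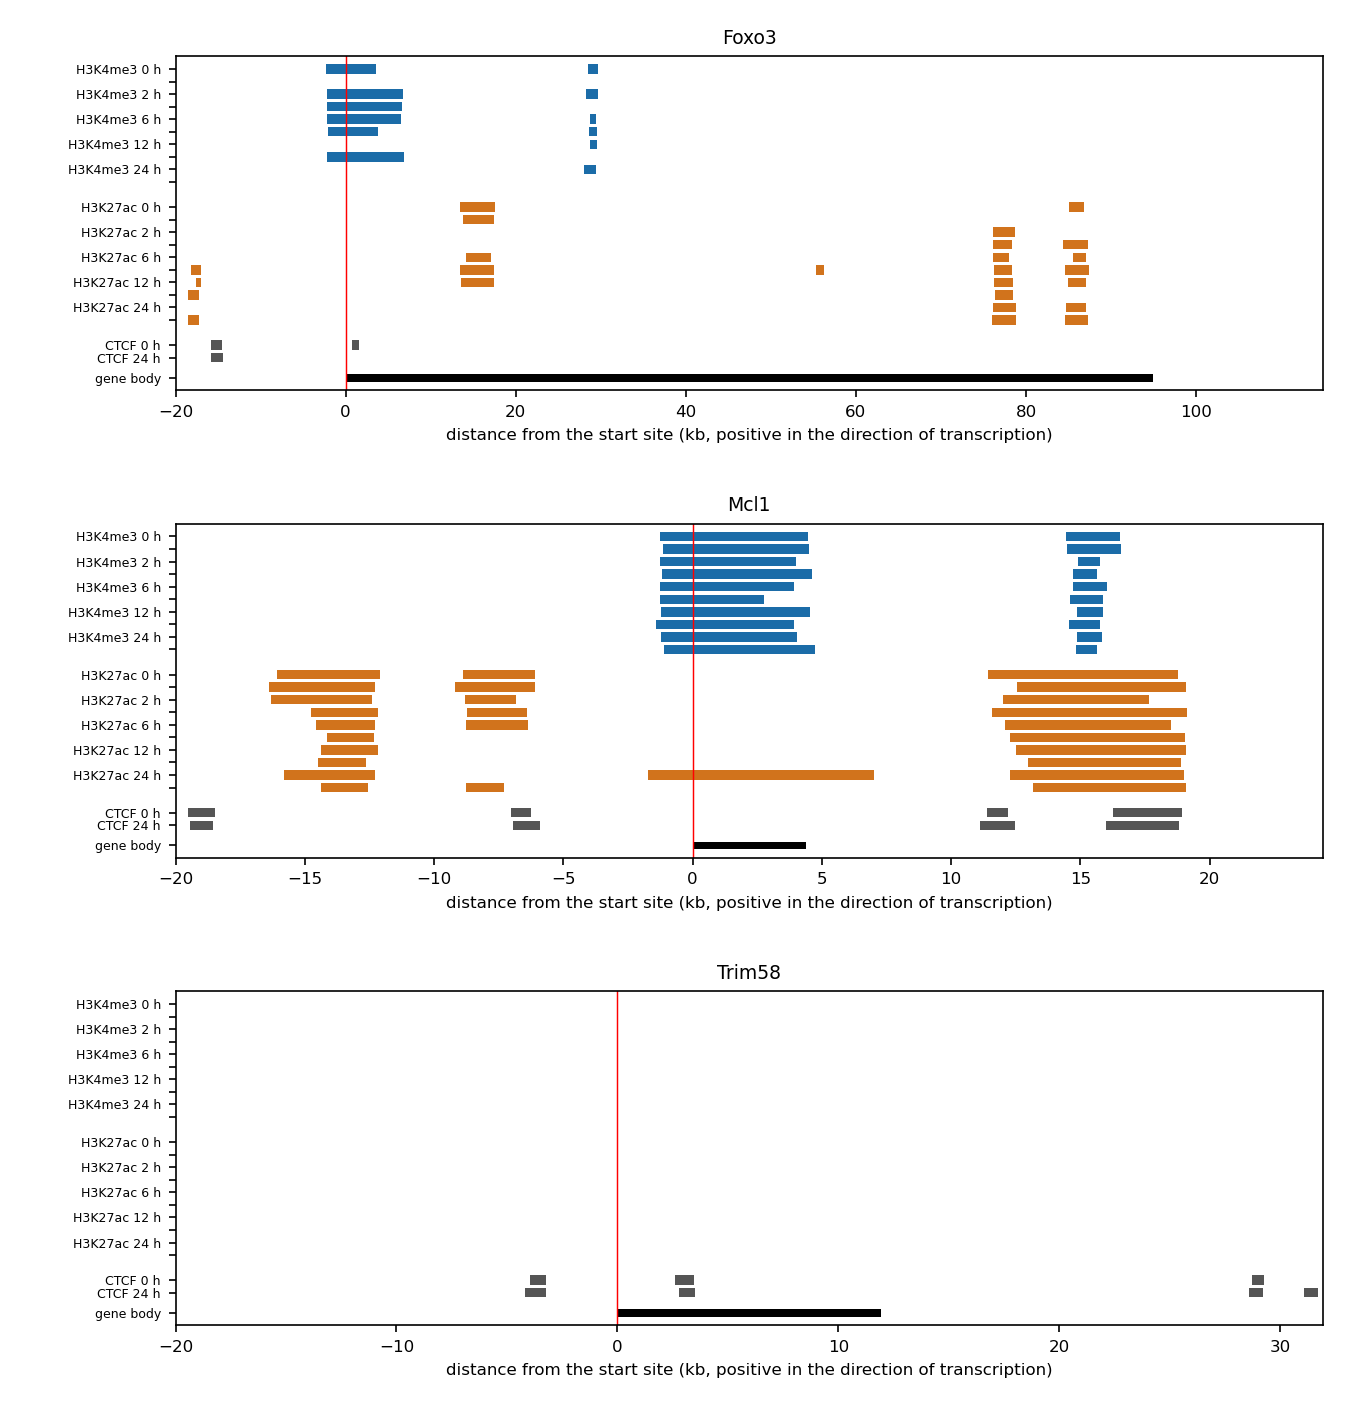
Peaks in each list across the Foxo3, Mcl1 and Trim58 windows, drawn to scale as distance from the TSS (red line) in kb, with H3K4me3 in blue, H3K27ac in orange, CTCF in grey and the gene body in black. The 2 rows of a time are its replicates. At Foxo3 the peak at +77.4 kb starts at 2 h, at Mcl1 the H3K4me3 peak at +15.5 kb is widest at 0 h, and Trim58 has CTCF peaks only.

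Among the autophagy genes, Ulk1 kept H3K4me3 at its TSS (chromosome 5, 110807350 to 110810885) in 10 of 10 lists at 2934 to 3275 bp. H3K27ac at the same start was listed in 3 of 10, replicate 1 at 2, 6 and 24 h, at 4211, 3657 and 4335 bp with scores of 256 to 367. All 3 lists with the peak were replicate 1, and no replicate 2 list had it at any time. The 24 h difference did not pass (adjusted p = 0.60, limma). The rest of the Ulk1 window held the starts of Pus1 and Ep400, where both marks were in 10 of 10 lists; H3K4me3 at Ep400 averaged 3453 ± 402 bp in untreated cells and 2464 ± 173 bp after 24 h (SD, n = 2), with a log2 difference of -0.45 that did not pass (adjusted p = 0.22).

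Map1lc3b, which encodes LC3B, had H3K4me3 at its TSS (chromosome 8, 121589551 to 121592743) at 2446 to 2835 bp in 10 of 10 lists, 2604 ± 223 bp at 0 h and 2708 ± 180 bp at 24 h (adjusted p = 0.82, limma). H3K27ac there (121588414 to 121592800) covered 3543 and 3571 bp at 0 h and 4224 and 4244 bp at 24 h, the longest of the 10 lists being the 2 at 24 h. The log2 difference of 0.24 (SE 0.06) had an adjusted p of 0.071, and of 0.036 with the lists at 0 and 24 h alone. Both marks were also listed at -12.1 kb from the TSS, at the start of Fbxo31, in every list. A region at -4.86 kb held H3K27ac in 9 lists, replicate 2 at 2 h excepted.

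Gabarapl2, of the GABARAP branch of the same family, had H3K4me3 at its TSS (chromosome 8, 111939325 to 111942173) at 2348 to 2793 bp in 10 of 10 lists and H3K27ac (111938667 to 111941897) at 2441 to 3108 bp in 10 of 10. The log2 differences at 24 h were 0.02 and 0.10 (adjusted p = 0.97 and 0.61, limma). An H3K27ac region at -10.5 kb from the TSS, in an intron of Tmem231, covered 2236 and 2593 bp at 0 h and 3318 and 3225 bp at 24 h (log2 difference 0.41, SE 0.13, adjusted p = 0.14). The Gabarapl2 start had the highest-scoring H3K4me3 peaks of the members' starts by median, 1630, at the 90 percentile.

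Trim58 and Alox15, both known for high expression late in the erythroid lineage, had no H3K4me3 and no H3K27ac peak in their windows in any of the 20 lists. The same held for 36.6% of all protein-coding gene windows for H3K4me3 and 35.4% for H3K27ac. The nearest H3K4me3 peak lay 131 kb from the Trim58 TSS (chromosome 11, 58640465) and 56.3 to 56.5 kb from the Alox15 TSS (chromosome 11, 70352031). The nearest H3K27ac peak lay 52.1 to 131 kb and 41 to 57.1 kb away, depending on the list. CTCF was present at both: 3 peaks at 0 h and 4 at 24 h in the Trim58 window, the nearest 2.63 to 2.8 kb from the start, and 1 at each time in the Alox15 window. Absence from the lists says that no peak passed the caller, and no level can be put on it without reads.

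The Trim58 promoter (chr11:58640215-58640464, mm10, plus strand, RefSeq) is shown as the start without either mark, and as the only one of the 8 member promoters searched with a GATA word, in capitals.
Trim58 promoter: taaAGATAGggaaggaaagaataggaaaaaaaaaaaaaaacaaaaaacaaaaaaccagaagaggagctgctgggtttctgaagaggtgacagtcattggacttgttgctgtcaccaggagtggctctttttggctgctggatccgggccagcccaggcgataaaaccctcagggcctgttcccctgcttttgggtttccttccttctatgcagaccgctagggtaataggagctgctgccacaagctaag

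GATA words were in 29.8% of all promoters. KLF words were in 1 of 8 member promoters (Bcl2l1) and 6.92% of all, and E-boxes in 1 of 8 (Map1lc3b) and 30.6% of all. Bnip3l and Alox15 had no entry in the promoter table.

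Summed over whole windows, no member changed by the fit. Of 8 windows tested for each mark, 0 were called for H3K4me3, where 0.439% of all windows were higher at 24 h and 0.673% lower, and 0 for H3K27ac, where 3.37% were higher and 1.86% lower. At an unadjusted p under 0.05, H3K4me3 differed in 2 windows and H3K27ac in 0, and the share of all windows at that cutoff is not given for comparison. The 2 windows were Mcl1, with 7786 ± 34.6 bp at 0 h and 6449 ± 272 bp at 24 h (SD, n = 2; adjusted p = 0.33, limma), and Ulk1, with 8903 ± 403 bp and 7894 ± 138 bp (adjusted p = 0.43). The Mcl1 window difference was -1336 bp, beside -1210 bp at the site 15.5 kb after the TSS and -126 bp at the TSS. In the Ulk1 window it was -1010 bp, beside -988 bp at the start of Ep400, -194 bp at that of Pus1 and 173 bp at the Ulk1 TSS. Bcl2l1 had the most covered bases for H3K27ac, 18454 to 28267 bp with a median of 25319 bp, and Bnip3 the lowest median of the 8 windows, 2942 bp, in a range of 1896 to 4051 bp.

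Among regions of the whole genome whose longest peak was 1 kb or more, presence in all lists differed between length classes. It was lowest in the shortest (1 to 2 kb) and the longest of these classes, and shorter regions were not put in a class. Over all H3K4me3 regions, 71.1% of those whose longest peak was 1 to 2 kb were present in all 10 lists, 98.2% of those at 2 to 4 kb, 95.7% of those at 6 to 8 kb and 58.4% of those at 8 kb or more. For H3K27ac the shares in these classes were 38%, 81.6%, 69.4% and 29.4%. The median score percentile of H3K4me3 peaks was 36.5 at 1 to 2 kb, 72.8 at 2 to 4 kb, 35 at 6 to 8 kb and 13.8 at 8 kb or more. These are medians over the peaks of each length, while presence was counted per region by its longest peak. For H3K27ac the percentiles were 37.9, 70.4, 40.4 and 12.4. The longest H3K4me3 peak at the Foxo3 start (9040 bp) and the H3K27ac peak at the Mcl1 start (8726 bp) belong to the longest class. The H3K27ac peaks at the Ulk1 start do not, and those peaks, of 3657 to 4335 bp, had a median score at the 60.1 percentile. What sets the presence of these peaks was not tested.

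**Figure D4:**
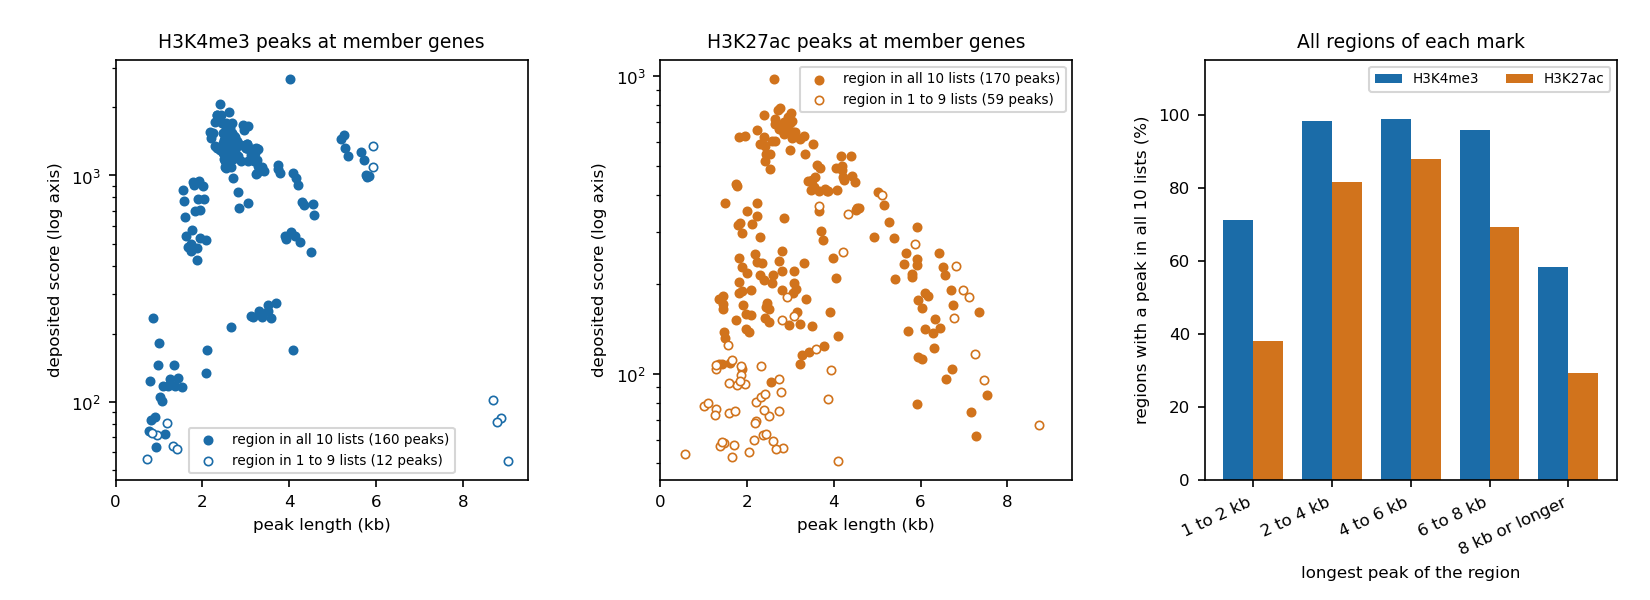
Peak length in kb against the deposited score (log axis) for the member peaks of H3K4me3 and H3K27ac, filled where the region was in all 10 lists and open where it was in 1 to 9. At right is the percent of regions of each mark present in all 10 lists, by the length of their longest peak, for longest peaks of 1 kb or more. Open points lie mostly at low scores and include the peaks over 8 kb, and the bars drop to 58.4% and 29.4% in the longest class.

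Beyond the members, a list of 58 matched genes of the same processes covered the BCL2 family, autophagy initiation, conjugation, receptors and lysosome, mitophagy and others. H3K4me3 lay at the promoter in all 10 lists for 51 of them (87.9%) and H3K27ac for 48 (82.8%), against 43.7% and 39% of all protein-coding genes. All 10 genes of initiation and nucleation carried both marks in every list, as did 8 of 13 genes of the BCL2 family, and the other 5 of that family had neither mark in any list. Of 51 promoter regions tested, 0 were called for H3K4me3 at 24 h and 1 was longer and 0 shorter for H3K27ac, with median log2 differences of 0.01 and 0.05. At an unadjusted p under 0.05, 4 and 7 differed. Over all regions tested, 0.471% were longer and 1.11% shorter for H3K4me3, and 3.3% and 3.02% for H3K27ac, with 1841 of 14862 and 4444 of 21011 at an unadjusted p under 0.05.

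The promoter that passed was Atg4d, a protease that processes the LC3 and GABARAP proteins. Its H3K27ac peak covered 3493 and 2930 bp at 0 h and 4531 and 4986 bp at 24 h (log2 difference 0.54, SE 0.10, adjusted p = 0.025, limma). Both lists at 24 h were above both at 0 h. The call was lost with a replicate block and without replicate 2 at 0 h or either replicate at 24 h.

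CTCF, the insulator protein, was compared with 1 list at each time and therefore without a test. The members' windows held 27 CTCF peaks at 0 h and 32 at 24 h. Of these, 2 (7.41%) had no overlapping peak at 24 h and 8 (25%) none at 0 h, beside 7.87% and 26.7% of the whole lists. A CTCF peak lay over the Bcl2l1 TSS at both times, with scores of 282 and 859, and overlapped H3K4me3 and H3K27ac peaks of all 10 lists. At the Ulk1 TSS a CTCF peak was listed at 24 h alone, with a score of 75.4, and near the Foxo3 TSS at 0 h alone, with a score of 50.4. In the Mcl1 H3K27ac region at 15.3 kb, the stronger CTCF peak had scores of 464 and 704 and overlapped H3K27ac peaks of all 10 lists.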

How the data were processed

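Per the methods, the authors mapped the histone-mark reads with Bowtie2 (default settings) to mm10, discarded reads without a unique position, and ran MACS with its nomodel option to make 1 list per library. The version of MACS, its input control and its cutoff are not given in the sources used here, nor are the CTCF steps beyond Bowtie2 and mm10. The labels' protocol text names another build, and mm10 is used here after the methods and the processing notes. Each deposited list held a position and a score per peak, with no counts; the scale of the score is not stated, depth is unknown, and how far lengths move with depth was not tested.

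Genes and start sites were taken from GENCODE M21, with the start of the best-ranked transcript by annotation tag and then the longest, and 10 of 10 names matched. Covered length was computed for regions (touching peaks of all 10 lists joined) and for gene bodies plus 20 kb, and limma 3.58.1 (R 4.3.3) was fitted to log2(bp + 200) with 5 time means over all regions or windows with a peak in at least 2 lists. The fit was run on simulated lengths with normal spread and shifts added at 24 h. The simulation did not mimic peaks missing from a list, and its outcome is not given here. Python 3.11.15 with pandas 2.3.3, numpy 2.4.6 and matplotlib 3.10.9 was used, and motifs were searched as exact letters in the RefSeq promoter table and the GRCm38.p6 genome. A region lay in a window if it shared at least 1 bp with it.

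All members and their TSS regions were named, with every region that passed a fit or was gained or lost and the longest other region. Pathway promoters that passed were also named. Some of the other regions whose values differed between times or lists were added, and not all such regions are described. The members, the gene lists and the tests were chosen with earlier results of these data known. The alternatives tried were a stricter score, equal peak numbers, other pseudocounts, filters, flanks and overlaps, merging, length scaling, fewer lists, a replicate block and leaving out each list. Some marker genes of the lists are not reported here.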

Additional observations from a re-analysis of the deposited data

How the results depend on the processing

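The lists hold no reads, so neither depth nor signal within a peak could be compared, and 2 lists at a time limit every test. The correlations of the deviations of same-numbered lists from the time means lay between -0.08 and 0.03 for H3K4me3. For H3K27ac they lay between -0.03 and 0.02, with 0 of 10 pairs over 0.1 for either mark. Such correlations cannot tell whether same-numbered lists shared a preparation, and at the Ulk1 start all 3 H3K27ac peaks were in replicate 1 lists. With a replicate block, the H3K4me3 regions called over time went from 2 to 1 (Mcl1, adjusted p = 0.10) and the H3K27ac pathway promoters from 1 to 0 (Atg4d).

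Keeping only peaks at or above the median score left 1 H3K4me3 region called over time, 1 lost and 1 window called, and for H3K27ac 0 regions at 24 h, 0 over time and 0 gained or lost. There the Bcl2l1 H3K4me3 start turned from 0.19 to -4.38 (log2) and was called, since its peaks at 24 h fell under the median score. The Mcl1 and Bnip3 regions were not tested at this setting. The Mcl1 peaks scored at most 235 against a median of 860, and too few Bnip3 peaks reached it for the filter of 2 lists. The gained Foxo3 H3K27ac region was not tested there either, since its peaks scored at most 99.4 against a median of 242. A flank of 5 kb left 0 H3K4me3 regions called at 24 h and 1 over time, since the Mcl1 region falls outside it. A pseudocount of 50 bp called 1 H3K4me3 pathway promoter. For H3K27ac, the lists at 0 and 24 h alone called 3 regions, and equal peak numbers called 2 over time with 1 gained or lost. A fit of H3K27ac regions in all 10 lists (chosen after seeing the data) called 0 over time. The shares of all regions called under these settings, or with a list left out, are not given. These counts therefore follow single sites and say nothing about the members as a set.

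Leaving out each list in turn gave, for H3K4me3, 0 to 1 regions called at 24 h, 1 to 2 over time, 0 to 1 gained or lost, 0 to 1 pathway promoters and 0 windows. For H3K27ac it gave 1 to 3 at 24 h, 1 to 3 over time, 2 to 6 gained or lost, 0 to 1 pathway promoters and 0 windows. The F test of the Mcl1 region gave adjusted p-values of 0.045 to 0.23. Differences not called with all lists changed sign when scaled by median peak length (H3K4me3 at the starts of Bnip3l -0.03, Map1lc3b -0.01 and Gabarapl2 -0.04, none called). Leaving out a list changed the sign at 5 starts, with ranges of -0.03 to 0.13 for Map1lc3b (also -0.01), -0.10 to 0.04 for Mcl1 and -0.02 to 0.07 for Gabarapl2 in H3K4me3, none called. In H3K27ac they were -0.06 to 0.60 for Bcl2l1 and -0.38 to 0.36 for Bnip3, with 0.60, -0.38 and 0.36 called. The cause of these changes was not tested. Of the single-region and window values, 595 kept their direction and call, 11 lost and 8 gained a call, 10 changed sign (above) and 20 window differences moved by more than the replicate SD. Among the latter, the H3K4me3 difference of the Bcl2l1 window (24 h minus 0 h) went from 190 bp to -47.5 bp with a flank of 50 kb, -182 bp scaled by median length and -3959 bp at the median score.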
